A study of Mus musculus with 6 samples.

Results

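The HSP70 family, the 70-kDa heat shock protein chaperones, was followed through RNA-seq of mouse type 1 innate lymphoid cells (ILC1s). The deposited values of all libraries carry the tag LN beside ILC1, and the tag is not spelled out there. The family was taken as the 10 genes Hspa1a, Hspa1b, Hspa1l, Hspa2, Hspa8, Hspa4, Hspa14, Hspa5, Hspa13 and Hspa9, found by symbol among the 24628 genes of the deposited table. The family was selected on the RPKM difference between the groups in Hspa1a and Hspa1b, so the levels of the members in the groups are a description. No p-value of a single member is given, and the counts of members that the fit over all genes called restate that choice and support nothing. The study set 3 libraries of conditional knockout (cKO) cells against 3 libraries of cells with floxed Rora alleles, which encode the nuclear receptor ROR alpha. The series text calls the second group wild type, while its libraries are titled by the floxed allele. The cKO libraries are titled only as treatment, and were taken as cKO by elimination; their columns add the name Ncr1, a gene of natural killer cells and ILC1s, to Rora. The labels used here give no strain, age, sex, sort gate or number of animals, and do not spell out the driver of the deletion or say whether the libraries of a group came from separate animals. Any p-value below therefore measures the spread between these libraries, which may be technical.

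HSP70 proteins bind exposed hydrophobic stretches of unfolded proteins and release them in a cycle driven by ATP. J-domain proteins deliver clients and start ATP hydrolysis, and nucleotide exchange factors swap ADP for ATP so that the client is let go. The family divides by place and by regulation: Hspa8 encodes the constitutive cytosolic chaperone HSC70, Hspa1a and Hspa1b encode the stress-inducible cytosolic HSP70, Hspa5 encodes BiP of the endoplasmic reticulum (ER) and Hspa9 encodes mortalin of mitochondria. Heat shock factor 1 (HSF1) drives transcription of the inducible genes by binding heat shock elements, while Hspa5 is a classical target of the ER unfolded protein response.

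The inducible pair was higher in the cKO libraries, while the other 7 tested members were at 0.900 to 1.27 times their floxed levels. Hspa1a and Hspa1b were at 4.07 and 3.38 times their floxed RPKM (reads relative to the length of the gene and the depth of the library). In RPKM, Hspa8, the most abundant member, averaged 794 ± 19.2 in cKO and 783 ± 21.1 in floxed libraries (SD, n = 3 each). By limma on log2(RPKM + 1), with Benjamini-Hochberg adjustment over all 12731 tested genes, 2 of the 9 tested members passed an adjusted p under 0.05 as higher in cKO and 0 as lower. Across all tested genes 0.652% passed as higher and 0.668% as lower, and nothing is read from the members' count because the contrast had helped to choose them. The median log2 difference was 0.07 over the 9 tested members, 0.02 over the 7 outside the pair and -0.03 over all tested genes. Hspa1l was too low to be tested.

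Because Hspa1a and Hspa1b carry the difference in this family, their promoters are shown, with that of Hspa5 for a member under another stress pathway. The sequences are RefSeq windows on GRCm38.p6, the build that mm10 also names, from 250 bases before to 50 after the annotated start of the gene, written 5′ to 3′ on the strand of the gene. Hspa1a lies at chr17:34972107-34972406 (minus strand), Hspa1b at chr17:34959189-34959488 (minus strand) and Hspa5 at chr2:34771840-34772139 (plus strand); the RefSeq start of Hspa5 lies downstream of the one in the deposited table. Capitals mark the core of a heat shock element, GAANNTTC, in the first and second windows, and the ER stress response element in the last.
Hspa1a: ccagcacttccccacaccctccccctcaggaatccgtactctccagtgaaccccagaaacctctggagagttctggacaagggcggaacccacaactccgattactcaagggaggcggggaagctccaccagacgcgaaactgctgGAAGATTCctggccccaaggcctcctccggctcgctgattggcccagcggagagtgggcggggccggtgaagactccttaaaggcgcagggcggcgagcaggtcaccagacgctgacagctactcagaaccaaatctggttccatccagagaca
Hspa1b: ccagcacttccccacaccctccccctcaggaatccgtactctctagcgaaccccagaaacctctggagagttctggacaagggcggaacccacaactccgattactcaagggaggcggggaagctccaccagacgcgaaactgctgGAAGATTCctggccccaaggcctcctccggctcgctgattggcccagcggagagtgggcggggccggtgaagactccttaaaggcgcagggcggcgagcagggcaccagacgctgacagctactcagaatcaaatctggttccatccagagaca
Hspa5: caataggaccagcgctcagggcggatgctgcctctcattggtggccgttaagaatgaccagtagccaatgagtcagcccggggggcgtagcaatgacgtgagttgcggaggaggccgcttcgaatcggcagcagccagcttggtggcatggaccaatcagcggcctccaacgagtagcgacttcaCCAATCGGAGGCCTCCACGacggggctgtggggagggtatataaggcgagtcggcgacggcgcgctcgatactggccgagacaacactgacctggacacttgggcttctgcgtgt

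The windows of Hspa1a and Hspa1b were the same at 296 of 300 positions (98.7%). Counting from 1 at the 5′ end of the window and giving the base of Hspa1a first, they differed by C44T, T47C, T249G and C276T, none of which touches the heat shock element core at positions 147 to 154. That core began 104 bases before the start of either gene. Of 7 members with a RefSeq window, Hspa1a and Hspa1b held GAANNTTC, and Hspa1l, Hspa2, Hspa4, Hspa14 and Hspa5 did not. Over 32851 mouse promoter windows of the same length, 7.86% held that core on either strand. A heat shock element of 3 alternating pentamers, which contains the core, was in none of the 7 windows and in 0.603% of all windows. The ER stress response element, which joins CCAAT to CCACG across 9 bases, was found among the 7 windows in that of Hspa5, at positions 186 to 204, and in 0.119% of all windows. CCAAT alone, searched on both strands, occurred in 6 of the 7 windows, Hspa4 being the exception, and in 37.4% of all windows; the copy in Hspa5 nearest the start is part of its ER stress response element. TATAAA was in none of the 7 and in 13.6% of all windows. A match is a run of letters in the sequence and was not tested for binding.

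**Figure D1:**
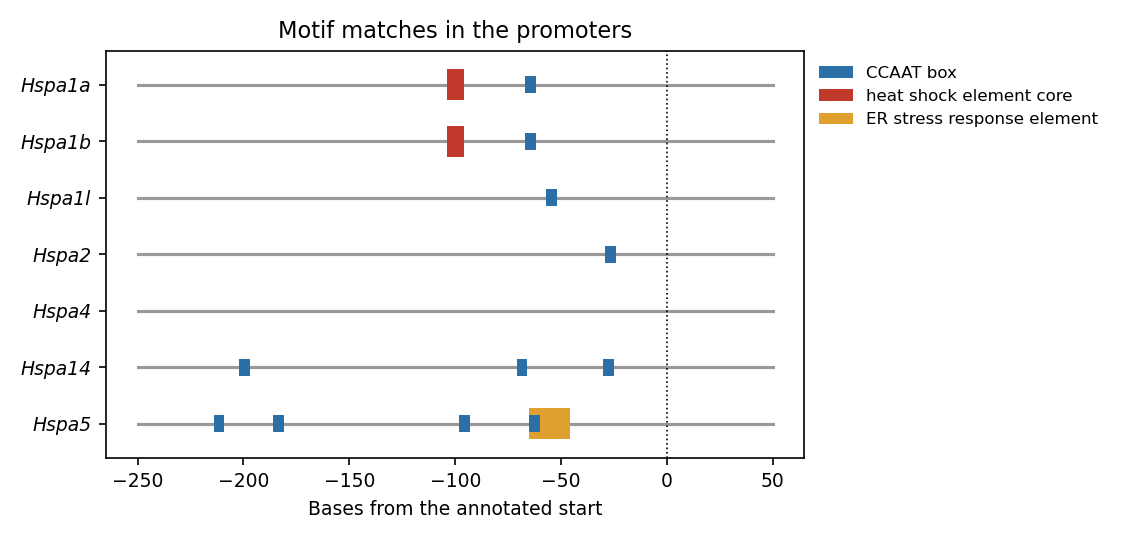
Positions of the motifs in the promoter windows of the 7 HSP70 genes with a RefSeq window; the horizontal axis is the distance in bases from the annotated start and each row is a gene. The heat shock element core sits at the same place in Hspa1a and Hspa1b, 104 bases before the start, and the ER stress response element is drawn for Hspa5.

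Hspa1b, at chromosome 17, 34956436 to 34959238 on the minus strand (mm10, in the deposited table), had the larger level of the pair. It measured 120.6, 117.8 and 109.0 RPKM in the 3 cKO libraries, against 34.1, 33.2 and 35.5 RPKM in the 3 floxed libraries. The groups lay far apart, and the lowest cKO library was well above the highest floxed one. The means were 115.8 ± 6.07 and 34.3 ± 1.16 RPKM (SD, n = 3 each), a log2 difference of 1.73 (SE 0.05) on the log2(RPKM + 1) scale, the 5th largest of the 12731 tested genes. These values rested on 1877 to 7588 reads per library.

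Hspa1a, at chromosome 17, 34969190 to 34972156 on the same strand, encodes nearly the same protein. It measured 45.6, 42.1 and 42.5 RPKM in cKO libraries, against 12.2, 9.35 and 10.4 RPKM in floxed libraries. Again every cKO library exceeded every floxed one. The means were 43.4 ± 1.91 and 10.7 ± 1.46 RPKM (SD, n = 3 each), with a log2 difference of 1.94 (SE 0.10), the 4th largest, on 559 to 3035 reads per library. The coefficient of variation was 4.40% in cKO and 13.7% in floxed libraries.

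Reads of this pair are uncertain between its members. Their coding sequences were 99.4% identical, and 47.1% of all 100-base windows of the Hspa1a transcript occurred unchanged in that of Hspa1b, while 49.9% of the Hspa1b windows occurred in Hspa1a. With 50-base windows these shares were 58.8% and 62.3%, and with 150-base windows 38.1% and 40.5% (not given in the sources used here: read length and the handling of reads that map to several places). The sum of their reads does not depend on how such reads were split between them. It would be too low if such reads were left out, and too high if each was counted for both genes. That sum was 473, 455 and 432 RPM (reads scaled to library depth) in cKO libraries, against 132, 121 and 130.4 RPM in floxed libraries. The means of 453 ± 20.9 and 127.7 ± 5.95 RPM (SD, n = 3 each) stood in a ratio of 3.55, or 1.83 on the log2 scale. The ratio of Hspa1a to Hspa1b RPKM was 0.375 ± 0.0166 in cKO and 0.311 ± 0.0419 in floxed libraries, with ranges of 0.357 to 0.390 and 0.281 to 0.359 that overlapped.

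Other members are farther from the pair in sequence. The coding sequence of Hspa1b was 82.6% identical to that of Hspa1l, 78.2% to that of Hspa2 and 74.4% to that of Hspa8. Hspa8 and Hspa2 shared 0 windows of 50, 100 or 150 bases with Hspa1b, and 3.29% of the 100-base windows of Hspa1b occurred in Hspa1l. Identity was 59.5% with Hspa5 and 41.5% to 45.9% with Hspa13, Hspa4 and Hspa14.

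A predicted gene on the opposite strand, Gm20481, lies wholly within the exons of Hspa1a, where its 564 exonic bases cover 19.0% of the Hspa1a exons. It measured 78.4, 61.1 and 72.2 RPKM in cKO libraries, against 23.4, 12.9 and 17.5 RPKM in floxed libraries. The groups did not overlap, as with Hspa1a itself. The means were 70.5 ± 8.78 and 17.9 ± 5.22 RPKM (SD, n = 3 each), a ratio of 3.93. The log2 difference was 1.95 (SE 0.20). No p-value is given, because its bases all lie in a gene on which the family was chosen. The library kit is stranded, per the labels, but the strand setting of the counting is not given, so reads of Gm20481 and Hspa1a cannot be told apart here.

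Genes that neighbour the pair were measured alongside it. Hspa1a starts 12918 bases from the start of Hspa1b and 547 bases from that of Hspa1l, which is read in the opposite direction. Of the other tested genes with any part within 50 kb, the neuraminidase gene Neu1 had a log2 difference of 0.25 (SE 0.09), with 8.72 ± 0.373 RPKM in cKO and 7.20 ± 0.835 RPKM in floxed libraries (SD, n = 3 each), and did not pass. Every cKO library lay above every floxed one for Neu1. The non-coding RNA gene 1110038B12Rik had 0.14, the RNA-processing gene Lsm2 had 0.03, the valyl-tRNA synthetase gene Vars had -0.05 and the histone methyltransferase gene Ehmt2 had 0.05, and none of these passed. Hspa1a, Hspa1b and Gm20481 were the tested genes of this interval that passed. The pair was chosen on this contrast and Gm20481 lies within Hspa1a exons, so nothing is read from these calls.

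**Figure D2:**
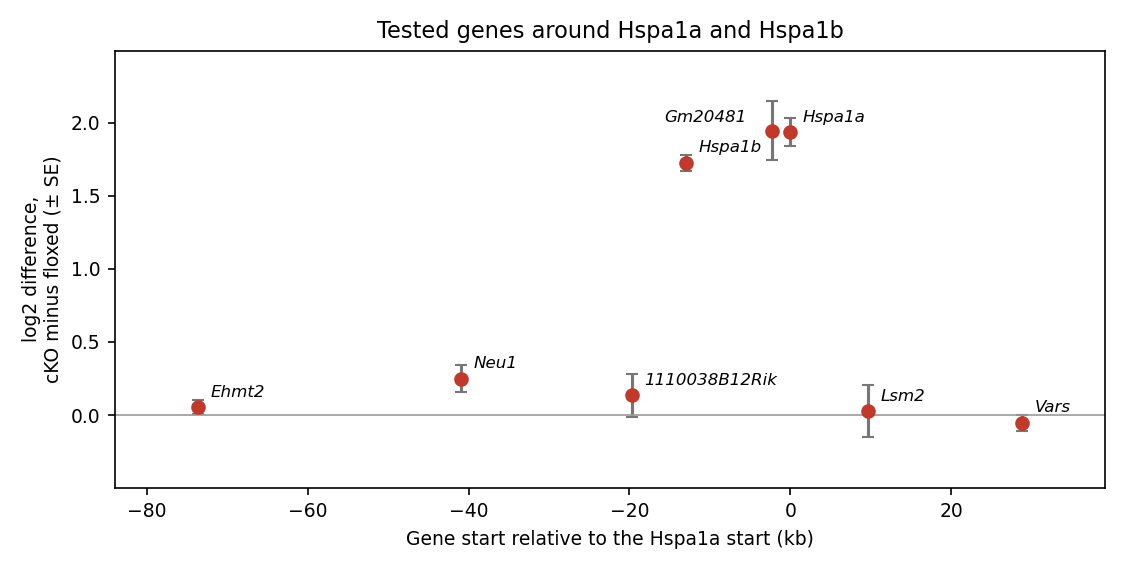
Difference of cKO minus floxed libraries in log2(RPKM + 1) for the tested genes around the inducible pair, against the distance of each gene's start from that of Hspa1a in kb; bars are SE of the limma fit. Hspa1a, Hspa1b and Gm20481 lie between 1.73 and 1.95, and Neu1, 1110038B12Rik, Lsm2, Vars and Ehmt2 between -0.05 and 0.25.

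The third gene of the cluster, Hspa1l (chromosome 17, 34972703 to 34979285, plus strand), is known mainly from the testis. It measured 0.523, 0.230 and 0.458 RPKM in cKO libraries, against 0.224, 0.241 and 0.355 RPKM in floxed libraries. The groups overlapped, on 12 to 29 reads per library, so a difference was not detectable at this depth. The predicted gene Gm10501 covers 71.9% of its exons on the opposite strand.

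Hspa2 (chromosome 12, 76404176 to 76406934, plus strand), a chaperone needed for meiosis in male germ cells, was present at a low level. It measured 13.7, 13.5 and 15.1 RPKM in cKO libraries, against 12.1, 10.7 and 10.6 RPKM in floxed libraries. The groups did not overlap, although the gap between the nearest libraries was small. The means were 14.1 ± 0.888 and 11.1 ± 0.867 RPKM (SD, n = 3 each), a log2 difference of 0.32 (SE 0.08).

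Hspa8 (chromosome 9, 40800984 to 40810087, plus strand) encodes HSC70, which folds new proteins and also uncoats clathrin vesicles and serves chaperone-mediated autophagy. It measured 801, 809 and 772 RPKM in cKO libraries, against 807, 775 and 767 RPKM in floxed libraries. The groups overlapped, with a log2 difference of 0.02 (SE 0.04) on 67198 to 77266 reads per library. The small nucleolar RNA genes Snord14c, Snord14d and Snord14e lie in the span of Hspa8 on its strand and held 0 to 46 reads per library.

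Hspa4 and Hspa14 are the more distant cytosolic members. Hspa4 (chromosome 11, 53259814 to 53300457, minus strand) encodes a relative of HSP110 that works as an exchange factor for HSP70. It measured 52.8, 51.1 and 50.5 RPKM in cKO libraries, against 58.2, 51.5 and 52.7 RPKM in floxed libraries, with overlapping groups and a log2 difference of -0.07 (SE 0.06). Hspa14 (chromosome 2, 3488850 to 3512814, minus strand) pairs with the J-domain protein Dnajc2 on ribosomes. It measured 8.10, 8.17 and 7.89 RPKM in cKO libraries, against 8.60, 8.94 and 9.29 RPKM in floxed libraries. Every cKO library lay below every floxed one, and the log2 difference was -0.13 (SE 0.06). Dnajc2, chosen after its value was seen, averaged 53.7 ± 2.10 RPKM in cKO and 58.1 ± 0.328 RPKM in floxed libraries (SD, n = 3 each), also with no overlap, and did not pass (limma adjusted p = 0.328).

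Hspa5 (chromosome 2, 34771970 to 34777547, plus strand) encodes BiP, the main ER chaperone and the sensor partner of the unfolded protein response. It measured 237, 236 and 247 RPKM in cKO libraries, against 217, 209 and 213 RPKM in floxed libraries. The groups did not overlap. The means were 240.1 ± 5.93 and 213 ± 3.98 RPKM (SD, n = 3 each), 1.13 times the floxed level and a log2 difference of 0.17 (SE 0.04). Limma's voom on reads recovered from the RPKM values called 3 of the 9 tested members higher, Hspa5 being the one added, and 0 lower; it called 1.76% of all tested genes higher and 2.42% lower.

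Hspa13 (chromosome 16, 75755190 to 75766821, minus strand), a short member of microsomes that lacks the substrate-binding domain, measured 3.32, 3.83 and 3.74 RPKM in cKO libraries, against 3.0, 3.75 and 3.49 RPKM in floxed libraries. The groups overlapped, and the log2 difference was 0.07 (SE 0.11). Hspa9 (chromosome 18, 34937414 to 34954357, minus strand) encodes mortalin, which pulls proteins into the mitochondrial matrix. It measured 100.9, 101.7 and 101.8 RPKM in cKO libraries, against 110.9, 111.3 and 113.7 RPKM in floxed libraries. Its libraries were the most alike of any member within a group, with coefficients of variation of 0.475% in cKO and 1.37% in floxed libraries, and the groups did not overlap. Its cKO mean of 101.5 ± 0.482 RPKM lay 9.35% below the floxed mean of 112.0 ± 1.53 RPKM (SD, n = 3 each). The log2 difference was -0.14 (SE 0.03).

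Counted together, 4 tested members had every cKO library above every floxed one, 2 had every cKO library below, and 3 overlapped. Among all tested genes 7.61% lay apart as higher and 12.7% as lower. At an unadjusted p under 0.05 the fit placed 4 members as higher and 1 as lower, where 5.55% of all tested genes were higher and 8.6% lower; nothing is read from these counts either. From the highest log2 difference down, Hspa1a and Hspa1b were followed by Hspa2 in place 648, Hspa5 in place 1548, Hspa13 in place 3350, Hspa8 in place 4797, Hspa4 in place 7851, Hspa14 in place 9526 and Hspa9 in place 9634 of 12731.

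**Figure D3:**
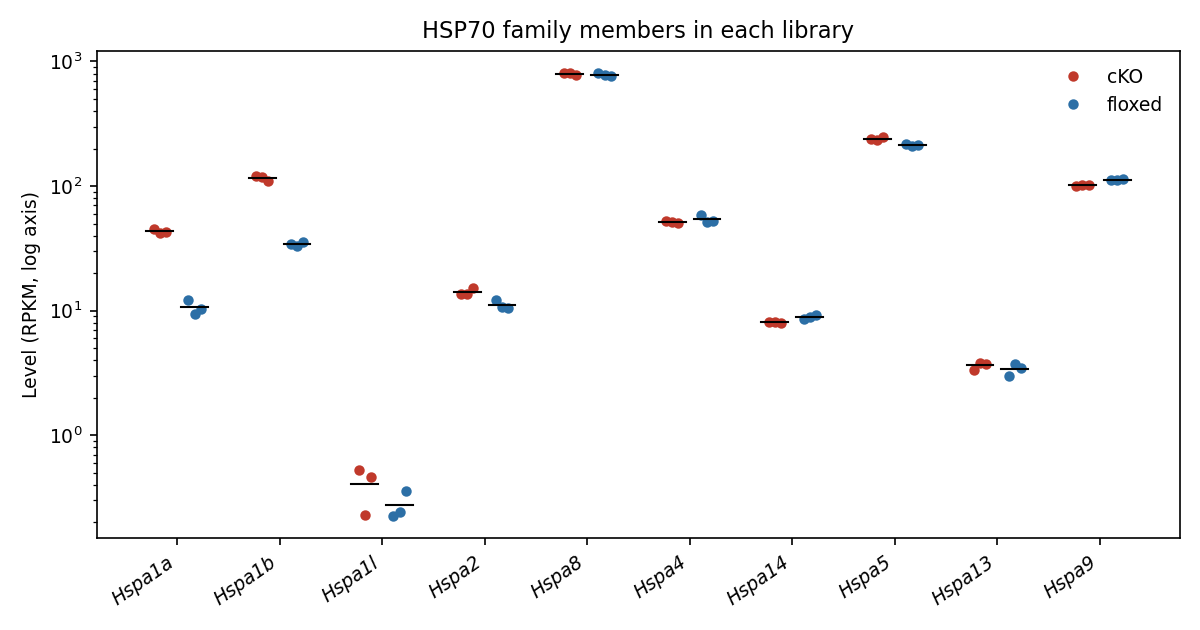
RPKM of each of the 10 HSP70 genes in each library (points; log axis) with the group mean, cKO left of floxed for each gene. Hspa1a and Hspa1b show a wide gap between the groups, while Hspa8 lies between 767 and 809 RPKM in all 6 libraries and Hspa1l below 1 RPKM.

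The order of the members by RPKM differed between the groups in the place of the inducible pair. In cKO libraries it ran Hspa8, Hspa5, Hspa1b, Hspa9, Hspa4, Hspa1a, Hspa2, Hspa14, Hspa13 and Hspa1l, and no neighbours in this order had overlapping ranges. In floxed libraries it ran Hspa8, Hspa5, Hspa9, Hspa4, Hspa1b, Hspa2, Hspa1a, Hspa14, Hspa13 and Hspa1l. There the neighbours Hspa2 and Hspa1a overlapped, at 10.6 to 12.1 and 9.35 to 12.2 RPKM. Hspa1b thus stood above Hspa9 and Hspa4 in cKO libraries and below them in floxed libraries. If reads shared by Hspa1a and Hspa1b were left out of the counting, the levels of both, and so their places, would be too low. They would be too high if each shared read was counted for both genes.

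Shares of the family's reads, which depend on gene length, describe the same libraries. Hspa1a and Hspa1b together made 7.97% ± 0.280 of the reads of the 10 members in cKO and 2.43% ± 0.0915 in floxed libraries (SD, n = 3 each). Hspa8 made 60.0% ± 0.674 and 64.1% ± 0.440, Hspa5 made 17.9% ± 0.685 and 17.1% ± 0.169, and Hspa9 made 7.01% ± 0.118 and 8.38% ± 0.274. The 10 members summed to 5602 to 5738 RPM in cKO and 5185 to 5396 RPM in floxed libraries, and the difference of the means, 434 RPM, held 326 RPM of the pair. The 8 other members summed to 5237 ± 59.1 RPM in cKO and 5129 ± 117 RPM in floxed libraries (SD, n = 3 each), with overlapping ranges. In RPKM the pair reached 0.200 ± 0.00623 of the level of Hspa8 in cKO and 0.0574 ± 0.00248 in floxed libraries. The share, sum and ratio of the pair would likewise be too low if its shared reads were left out, and too high if these were counted for both genes.

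**Figure D4:**
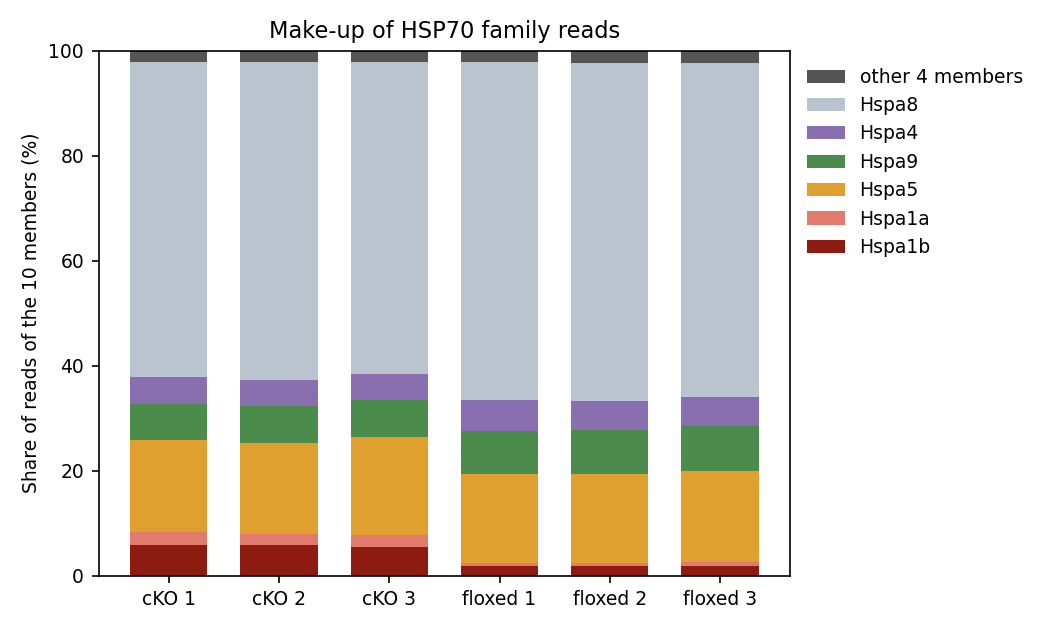
Share of the summed reads of the 10 HSP70 genes, in percent, held by each gene (stacked bars; 4 minor members drawn together) in each library, cKO libraries left of floxed. The share of Hspa1a plus Hspa1b is 7.71% to 8.26% in cKO libraries and 2.33% to 2.51% in floxed libraries, and Hspa8 holds the largest share in all 6.

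The partners that drive the HSP70 cycle were counted from lists that had been written down with earlier results of these data known. Beside each list below stand the shares over all tested genes. In limma 0.652% passed as higher and 0.668% as lower, with a median log2 difference of -0.03. At an unadjusted p under 0.05 the shares were 5.55% and 8.6%, and in voom 1.76% and 2.42%. Of 33 tested J-domain genes, 1 passed as higher and 0 as lower in limma, with a median log2 difference of -0.02. At an unadjusted p under 0.05, 4 were higher and 3 lower, while voom called 2 and 2. Dnajb4, an HSF1-induced J-domain gene, was the one that passed. It measured 14.1, 14.5 and 15.3 RPKM in cKO libraries, against 9.56, 9.77 and 9.50 RPKM in floxed libraries, a log2 difference of 0.56 (SE 0.06, limma adjusted p = 0.00985). The groups stood clearly apart. Its call was lost without cKO library 2 or 3 or floxed library 3. The most abundant others, Dnajc8 and Dnajc15, averaged 218 ± 10.8 and 165 ± 11.3 RPKM in cKO libraries, against 212 ± 14.0 and 146 ± 1.26 RPKM in floxed libraries (SD, n = 3 each), and did not pass. For Dnajc8 the groups overlapped, and for Dnajc15 they did not. Dnajb1, the usual partner of inducible HSP70 and named after its value was seen, averaged 43.3 ± 3.68 RPKM in cKO and 33.3 ± 2.19 RPKM in floxed libraries (SD, n = 3 each). It did not pass (log2 difference 0.37, limma adjusted p = 0.103), although every cKO library exceeded every floxed one.

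Exchange factors and superfamily relatives stayed below the threshold. Of 11 tested nucleotide exchange factor genes, 0 passed in either direction in limma, 0 had an unadjusted p under 0.05 while voom called 0; the median log2 difference was 0.06. Bag1, the most abundant, averaged 234 ± 3.34 RPKM in cKO and 222 ± 9.15 RPKM in floxed libraries (SD, n = 3 each). Hsph1, the HSP110 gene, averaged 28.4 ± 0.777 and 26.2 ± 1.61 RPKM. The 3 tested superfamily genes, Hsph1, Hyou1 and Hspa4l, likewise gave 0 by limma, by unadjusted p and by voom. Hspa12a and Hspa12b were too low to be tested.

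Among 6 tested genes of proteins that receive clients from HSP70 or mark them for degradation, 1 passed as higher and 0 as lower; 2 were higher at an unadjusted p under 0.05, 0 were lower, while voom called 2 and 0. Hsp90aa1, the inducible cytosolic HSP90 gene, was the one that passed. It measured 345, 342 and 343 RPKM in cKO libraries, against 284, 288 and 283 RPKM in floxed libraries, a log2 difference of 0.27 (SE 0.03, limma adjusted p = 0.0165). The groups stood apart, but the call was lost when any library other than floxed library 2 was left out. Hsp90ab1, its constitutive relative, averaged 1447 ± 16.2 RPKM in cKO and 1325 ± 36.3 RPKM in floxed libraries (SD, n = 3 each), with no overlap, and did not pass (limma adjusted p = 0.207). Stip1, which links HSP70 to HSP90, averaged 97.0 ± 8.11 RPKM in cKO and 99.4 ± 3.72 RPKM in floxed libraries (SD, n = 3 each), with overlapping groups.

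The wider HSF1 set was counted in the same way, from a list that overlaps those above. Of 19 tested HSF1-induced genes outside the family, 3 passed as higher and 0 as lower in limma, with a median log2 difference of 0.04; 6 were higher and 3 lower at an unadjusted p under 0.05, while voom called 6 and 2. Dnajb4 and Hsp90aa1, with the values given above, were among the 3 that passed. The number higher in the list was 0 without cKO library 2, cKO library 3 or floxed library 3. It was 1 without cKO library 1, 2 without floxed library 1 and 3 without floxed library 2. It was 1 with no filter on low values and 1 without the mean-variance trend. Over all tested genes, leaving out 1 library gave 33 to 51 higher, no filter 44 and no trend 39, against 83 (0.652%) in the fit used above. Ubb, the most abundant of the list, averaged 2291 ± 153 RPKM in cKO and 2029 ± 88.9 RPKM in floxed libraries (SD, n = 3 each) and did not pass. Of 6 tested heat shock factors and their regulators, 0 passed in limma, 0 had an unadjusted p under 0.05 and voom gave 0. Vcp and Hsbp1, the most abundant, averaged 42.5 ± 0.892 and 11.9 ± 2.03 RPKM in cKO libraries, against 45.3 ± 2.30 and 13.6 ± 0.437 RPKM in floxed libraries (SD, n = 3 each). Hsf1 itself, named after its value was seen, averaged 11.0 ± 1.02 and 10.5 ± 1.81 RPKM (limma adjusted p = 0.880).

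Around Hspa5, 26 ER unfolded protein response genes were tested, of which 2 passed as higher and 0 as lower in limma. Their median log2 difference was -0.04, against -0.03 over all tested genes. At an unadjusted p under 0.05, 4 were higher and 7 lower, against 5.55% and 8.6% of all tested genes. Voom called 3 and 6, against 1.76% and 2.42%. The genes that passed encode stress-induced regulators, not ER chaperones. Ddit3, the transcription factor CHOP, measured 67.3, 68.7 and 73.7 RPKM in cKO libraries, against 44.9, 44.0 and 42.8 RPKM in floxed libraries (log2 difference 0.66, SE 0.05, limma adjusted p = 0.00336). Ppp1r15a, the phosphatase subunit GADD34, measured 620, 632 and 593 RPKM in cKO libraries, against 429, 441 and 433 RPKM in floxed libraries (log2 difference 0.50, SE 0.04, limma adjusted p = 0.00358). In both genes the groups were separate. The ER chaperone genes Hsp90b1 and Calr, the most abundant others, averaged 456 ± 11.2 and 385 ± 14.4 RPKM in cKO libraries, against 461 ± 7.93 and 367 ± 8.33 RPKM in floxed libraries (SD, n = 3 each), and did not pass.

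Around Hspa9, 0 of 15 tested genes for mitochondrial chaperones and proteases passed in limma in either direction. Their median log2 difference was -0.04, against -0.03 over all tested genes. At an unadjusted p under 0.05, 0 were higher and 2 lower, against 5.55% and 8.6% of all tested genes. Voom called 0 higher and 1 lower, against 1.76% and 2.42%. Hspd1, the HSP60 gene, measured 86.9, 87.2 and 87.7 RPKM in cKO libraries, against 104.3, 97.8 and 100.2 RPKM in floxed libraries. Its groups did not overlap, and it did not pass (log2 difference -0.21, SE 0.04, limma adjusted p = 0.0782). Hspe1, which encodes the HSP10 lid of HSP60, averaged 125.5 ± 5.92 RPKM in cKO and 121 ± 16.4 RPKM in floxed libraries (SD, n = 3 each), with overlapping groups.

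**Figure D5:**
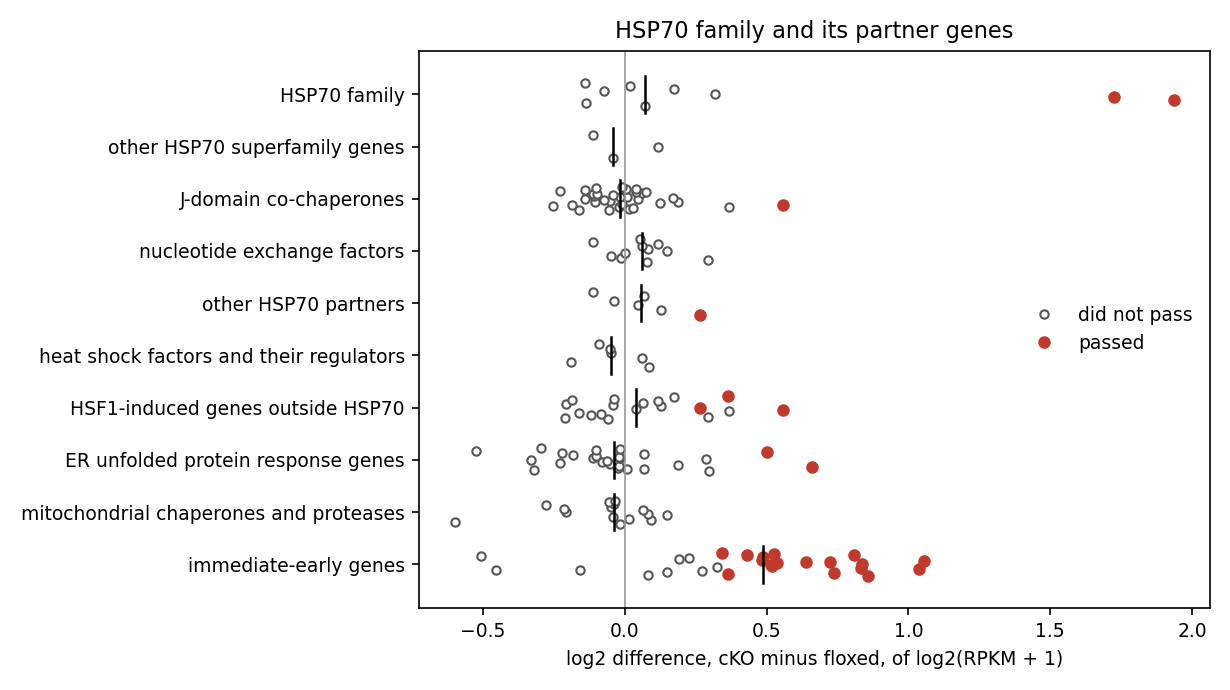
Difference of cKO minus floxed libraries in log2(RPKM + 1) of every tested gene in each list (points), with HSP70 members in the top row; filled points passed limma at an adjusted p under 0.05, and vertical bars are medians. Hspa1a and Hspa1b lie to the right of all other points drawn. The median is 0.07 for the HSP70 members, and the medians of the other chaperone lists lie between -0.05 and 0.06.

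Across all tested genes outside the family, the profiles over the 6 libraries most like that of the pair were found by the root mean square difference on the centred log2(RPKM + 1) scale. The smallest was that of Gm20481 (0.21), whose reads cannot be told apart from those of Hspa1a. It was followed by Traj40 (0.24), Polr2k-ps (0.27), Mir24-2 (0.32) and Mir3074-2 (0.32), where the median gene had 0.94. Besides Gm20481 these rested on few reads: 0 to 4 per library for Traj40, 1 to 21 for Polr2k-ps, 11 to 48 for Mir24-2 and 11 to 33 for Mir3074-2. Traj40 and Polr2k-ps reached 1 RPKM in 0 of the 3 floxed libraries and so entered through the cKO libraries alone. The profile matched is the group difference on which the pair was chosen, so the likeness is a description of these libraries.

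Other features of the libraries moved with the pair. The list of immediate-early genes, which respond within minutes to stimulation or handling of cells, held 27 tested genes. Of these, 18 passed as higher in cKO and 0 as lower in limma, against 0.652% and 0.668% of all tested genes. The list's median log2 difference was 0.49, against -0.03. At an unadjusted p under 0.05, 21 were higher and 2 lower, against 5.55% and 8.6% of all tested genes. Voom called 21 and 1, against 1.76% and 2.42%. The number higher was 10 to 16 when 1 library was left out, at most 11 without any one of the cKO libraries and 12 without floxed library 3. It was 11 without the mean-variance trend and 11 with replicate number added to the fit. The list summed to 3831 to 3878 RPKM in cKO and 2505 to 2567 RPKM in floxed libraries. Fos, Klf4, Jun and Fosb, which encode rapidly induced transcription factors, had the smallest p; Jun averaged 822 ± 28.7 RPKM in cKO and 459 ± 15.7 RPKM in floxed libraries (SD, n = 3 each), with a log2 difference of 0.84 (SE 0.04, limma adjusted p = 0.000901). The X-inactivation gene Xist averaged 9.43 ± 0.394 RPKM in cKO and 31.9 ± 3.16 RPKM in floxed libraries, and the Y-linked Ddx3y 20.8 ± 0.438 and 10.4 ± 0.498 RPKM (SD, n = 3 each). Every library held reads of both genes, 3594 to 12887 for Xist and 1131 to 2483 for Ddx3y. By these genes no library held RNA of 1 sex alone, and the labels do not say whether animals were pooled. The balance of the sex-linked genes differed between the groups, so it cannot be told apart from genotype. The part of handling or of sex in the levels of the HSP70 genes was not tested.

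Reads counted on genes, summed over all genes, came to 21111333 to 22440170 per cKO library and 20152146 to 21711523 per floxed library. Rora, whose value over the whole gene does not check a deletion of some exons, averaged 6.07 ± 0.334 RPKM in cKO and 7.42 ± 0.493 RPKM in floxed libraries (SD, n = 3 each). All 14 markers of type 1 ILCs and natural killer cells were above the minimum for testing and summed to 1897 to 1986 RPKM in cKO and 1953 to 2036 RPKM in floxed libraries; 1 passed as higher in limma (Gzma) and 2 as lower (Ncr1 and Gzmb), of which Gzmb lost its call without any one of the 6 libraries. B cell markers summed to 80.4 to 91.9 RPKM in cKO and 80.5 to 86.2 RPKM in floxed libraries, most of it Ighm at 76.2 ± 5.60 and 65.6 ± 2.18 RPKM (SD, n = 3 each). The other 9 all had lower means in cKO and, without Ighm, summed to 10.7 to 12.5 RPKM in cKO and 17.2 to 18.5 RPKM in floxed libraries, without overlap; of the 4 tested, Cd22 passed as lower in limma and lost its call without any library other than cKO library 3. T cell markers summed to 131 to 148 RPKM in cKO and 145 to 164 RPKM in floxed libraries, and 9 of 10 had lower means in cKO. Of the 7 tested, Cd3e passed as lower in limma and lost its call without any one of the 6 libraries. Beside the counts of these lists, 0.652% of all 12731 tested genes passed as higher and 0.668% as lower. Of the same genes, 7293 had a log2 difference below 0.

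Myeloid markers summed to 93.5 to 102.7 RPKM in cKO and 132.6 to 141.4 RPKM in floxed libraries, without overlap, with Cd14 below 0.1 RPKM in both group means. Of the 6 tested, 2 passed as lower in limma, against 0.668% of all tested genes, and 0 to 1 did when 1 library was left out. They were Cd74, at 32.0 ± 4.61 RPKM in cKO and 54.1 ± 3.93 RPKM in floxed libraries, and H2-Ab1, at 26.8 ± 1.14 and 41.6 ± 3.06 RPKM (SD, n = 3 each), both genes of the MHC class II pathway that B cells also express. The other 12 summed to 38.2 to 39.1 RPKM in cKO and 41.1 to 44.6 RPKM in floxed libraries, also without overlap. Of all 14 myeloid markers, 10 had lower means in cKO and 4 higher, where 7293 of all 12731 tested genes had a log2 difference below 0. Lyz2 averaged 20.9 ± 0.913 and 23.4 ± 1.69 RPKM with overlapping groups, and Itgam averaged 12.3 ± 0.401 and 11.6 ± 0.388 RPKM without overlap (SD, n = 3 each). The genes left out of these sums were chosen after their values were seen. The part of such cells in the levels of the HSP70 genes was not tested, and in bulk RNA fewer cells of a type and less RNA per cell cannot be told apart.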

How the data were processed

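RNA-seq of 6 mouse libraries was used, 3 cKO and 3 floxed, prepared from 2 µg of total RNA each with a stranded mRNA kit, per the labels' protocols. The build mm10 and the tools edgeR 3.12.1, Subread 1.5.1, featureCounts and STAR 2.5.3a are named, without their roles, per the submitters' processing notes. The authors deposited RPKM values for 24628 genes. RPKM times gene length gave whole reads for 100% of values within 0.001 reads, at 20152146 to 22440170 reads per library summed over these genes. Sums of members are given as RPM of these reads. limma 3.58.1 in R 4.3.3 fitted log2(RPKM + 1) with a mean-variance trend over all 6 libraries. A gene entered if 3 or more libraries reached 1 RPKM, which left 12731. Tests were two-sided, and the threshold was 0.05 for p adjusted by Benjamini-Hochberg. The log2 differences understate changes of low genes.

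The 10 members and all gene lists were chosen with earlier results of these data known. All members are named; in each chaperone list the passing genes by smallest p, up to 4, are named, and the 2 most abundant others may be; genes outside this rule are marked in the text, and the marker lists name examples. Coding identity used the longest open reading frame of GENCODE M21 transcripts, and promoters came from RefSeq. The alternatives were a pseudocount of 0.1, no filter, at least 5 RPKM, median-of-ratios scaling, limma without trend, voom on recovered reads, a replicate block and leaving out each library. A passing gene of the HSF1-induced list is counted but not reported here by name. Proteins, and promoters of Hspa8, Hspa13 and Hspa9, were not used here.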

Additional observations from a re-analysis of the deposited data

How the results depend on the processing

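The pair was chosen on this contrast, so its refits on the same 6 libraries show only how far the values move and support nothing. Hspa1a and Hspa1b passed as higher in all 13 alternatives run, and leaving out 1 library gave log2 differences of 1.85 to 2.03 and 1.70 to 1.77. The log2 ratio of their summed level was 1.83, with 1.86 under median-of-ratios scaling and 1.79 to 1.86 without 1 library. Of the 9 tested members, 2 passed as higher and 0 as lower in each leave-one-out fit. In those fits 33 to 51 of all tested genes were higher and 27 to 39 lower. Voom on recovered reads called 3 higher, adding Hspa5. It called 1.76% of all tested genes higher, against 0.652% by limma on log2(RPKM + 1).

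Of 97 tested chaperone network genes outside the family, 5 passed as higher and 0 as lower, against 0.652% and 0.668% of all tested genes. The number higher was 3 with no filter, 9 with voom, 3 without the trend and 2 to 5 without 1 library, while voom called 8 lower. The cause was not tested. Ddit3 and Ppp1r15a kept their calls in 13 of 13 alternatives. Over all tested genes, 83 were higher and 85 lower; median-of-ratios scaling gave 110 and 73, and shifted the median by 0.03, voom gave 224 and 308, no filter 44 and 36, no trend 39 and 35, and leaving out 1 library 33 to 51 and 27 to 39.

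Same-numbered cKO and floxed libraries had correlations of -0.03, 0.01 and 0.04 in their deviations from the group means. By this measure cKO library 1 correlated best with floxed library 2. Deviations from a mean of 3 libraries are not independent, so these values cannot show whether same-numbered libraries were handled together. With the replicate block 37 genes were higher and 23 lower, 2 HSP70 members still passed as higher and 2 chaperone network genes did. With 3 libraries a group and 12 to 29 reads per library for Hspa1l, small differences in low members could not be detected.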
